A study of Mus musculus with 2 samples.

Results

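Otos-positive early cells are a small group of LSK cells, a sorted marrow fraction of the mouse (no lineage markers, Sca-1 present, Kit high) in which stem cells and multipotent progenitors of the blood are found. They were chosen from single-cell RNA counts by a rule on 8 genes: at least 1 UMI (a distinct RNA molecule) of Otos, at least 1 UMI of Mc5r or Phlda2, no UMI of Mecom or Dntt, under 20 UMIs of Mpo, under 3 of Pf4 and under 5 of Car1. The rule picked 569 of 18029 cells that passed the authors' quality call, 191 in replicate 1 and 378 in replicate 2. Mice were either wild-type (WT) or described as IκB-negative, and the deposited cell table names the latter IkBKO. Both genotypes came from young animals, and femurs and tibias of both sides gave the marrow, which was depleted of mature cells with beads and then sorted. Each of 2 droplet libraries held both genotypes of 1 replicate, told apart by hashing antibodies, so genotypes were compared within a library. Neither the altered IκB genes, nor the cells in which they were altered, nor the number of mice is stated in the sources used here. A p-value therefore measures only the spread between these 4 pools of cells, which may be technical.

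Blood stem cells in this gate divide rarely and pass through multipotent stages before they commit to the myeloid, lymphoid, or megakaryocyte and erythroid lineages. Mecom encodes a transcription factor of long-term stem cells, Mpo a granule enzyme of myeloid progenitors, Dntt the DNA polymerase that marks early lymphoid progenitors, Pf4 a platelet factor and Car1 a carbonic anhydrase of the erythroid path. The rule therefore kept cells without strong signs of any of these states. Otos encodes otospiralin, a small secreted protein known from the inner ear. Mc5r encodes a melanocortin receptor, and Phlda2 is an imprinted gene known for its part in placental growth. NF-κB dimers are kept inactive outside the nucleus by IκB proteins, and the gene for IκBα is itself a target of NF-κB, which closes a feedback loop.

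Genes that the rule did not use describe the group, but they are a weak check of its label. Kit belongs to the sorting gate, and neighbouring cells share several of the levels. Kit, which encodes the receptor of the sorting gate, stood at 243 CPM (UMIs per 1000000 of the pool; WT) and 218 CPM (IkBKO) in replicate 1, then 279 and 242 CPM in replicate 2. The stem and progenitor factor Meis1 stood at 196 and 143 CPM in replicate 1, then 214 and 151 CPM in replicate 2. Hlf, a transcription factor of stem cells and early multipotent progenitors, was found in 82.1% of the WT and 60.0% of the IkBKO cells of replicate 1, and in 90.3% and 87.2% of those of replicate 2. In the cells without Otos these shares were 60.8% and 39.9%, then 83.5% and 60.8%. Some markers of committed cells were near 0. Il7r, the interleukin-7 receptor of lymphoid progenitors, was at most 0.652 CPM in any pool, Csf1r, the macrophage colony-stimulating factor receptor, at most 2.34 CPM, and Vwf, a gene of platelet-biased stem cells, at most 2.61 CPM. Il7r was highest in Dntt-positive cells, Csf1r in Mpo-rich cells and Vwf in Pf4-rich cells. The rule leaves out all of these cells, so the low levels of these genes were partly set in advance. Other lineage genes outside the rule were present. Ctsg, a granule protease of myeloid cells, ran from 49.8 to 318 CPM over the 4 pools, Gata2, a factor of stem cells and of megakaryocyte and mast cell precursors, from 79.6 to 119 CPM, and Satb1, a chromatin organizer of lymphoid progenitors, from 23.8 to 81.3 CPM. Itga2b, the integrin chain of the megakaryocyte path, reached 47.7 CPM, the dendritic and monocyte factor Irf8 39.2 CPM, the granule enzyme gene Elane 37.0 CPM and the myeloid factor Cebpa 33.8 CPM. The group thus held RNA of stem cell genes together with RNA of several lineages.

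Among the 569 cells, 412 held Mc5r without Phlda2, 100 held Phlda2 without Mc5r and 57 held both. Otos was at 1 UMI in 388 cells, at 2 UMIs in 112 and at 3 or more in 69, with a highest count of 6, so most cells entered on a single molecule. Just outside the rule were 770 cells that had Otos and kept to the upper limits but held neither Mc5r nor Phlda2, and 561 of these had 1 UMI of Otos. Another 504 cells failed only on Mecom, 331 of them by 1 UMI. Mpo was absent from 227 of the chosen cells and stood at 10 to 19 UMIs in 72, and 42 further cells met every other limit with 20 to 29 UMIs of Mpo. The edges of the group are thus set by single molecules.

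The chosen cells of the 4 pools held 1708697 UMIs (WT) and 503660 UMIs (IkBKO) in replicate 1, and 2187005 and 1533836 UMIs in replicate 2. The median cell held 9648 UMIs (WT) and 12007.5 UMIs (IkBKO) in replicate 1, then 7945 and 10062 in replicate 2, so IkBKO cells were read more deeply in both libraries. The IkBKO pool of replicate 1 rests on 40 cells and is the shallowest. The libraries shared 39 passing barcodes, which is 0.508% of the passing cells of replicate 1. Of the chosen cells, 5 held at least 25 UMIs of markers of another mature lineage: 1 WT cell of replicate 2 with 4991 UMIs of mature neutrophil genes, 1 IkBKO cell of replicate 1 with 136 UMIs of mast cell genes, 1 IkBKO cell of replicate 2 with 34 UMIs of erythroid genes, and, in WT replicate 1, 1 cell with 132 UMIs of monocyte and dendritic genes and 1 with 29 UMIs of B cell genes. The results they touch are given with and without these 5 cells. Doublets were not called, and whether these cells are doublets was not tested.

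The first comparison asked how common such cells were in each genotype, and they were rarer among IkBKO cells in both libraries. In replicate 1 they made up 151 of 3721 WT cells (4.06%, exact Clopper-Pearson 95% interval 3.45% to 4.74%) and 40 of 3962 IkBKO cells (1.01%, 0.722% to 1.37%). In replicate 2 they made up 237 of 4963 WT cells (4.78%, 4.20% to 5.41%) and 141 of 5383 IkBKO cells (2.62%, 2.21% to 3.08%). The WT share was thus 4.02-fold the IkBKO share in replicate 1 and 1.82-fold in replicate 2, and the intervals, which cover counting error only, did not overlap within either library. With 2 libraries an exact within-library permutation cannot give a p below 0.5, so the difference is stated without a test.

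A rule on single UMIs finds more cells at greater depth, and the IkBKO cells were the deeper ones. After each cell was thinned to 5000 UMIs, with shallower cells left out, the WT and IkBKO shares were 2.18% and 0.415% in replicate 1, then 3.32% and 1.72% in replicate 2. At 3000 UMIs they were 0.922% and 0.203%, and 1.88% and 0.716%. The lower IkBKO share held at each depth. A stricter rule of at least 2 UMIs of Otos gave 1.72% (WT) and 0.227% (IkBKO) in replicate 1, and 1.57% and 0.557% in replicate 2. A looser rule with no call on Mc5r or Phlda2 gave 9.73% and 3.66%, and 9.91% and 6.32%, so the gap narrowed to 2.66-fold and 1.57-fold.

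**Figure D1:**
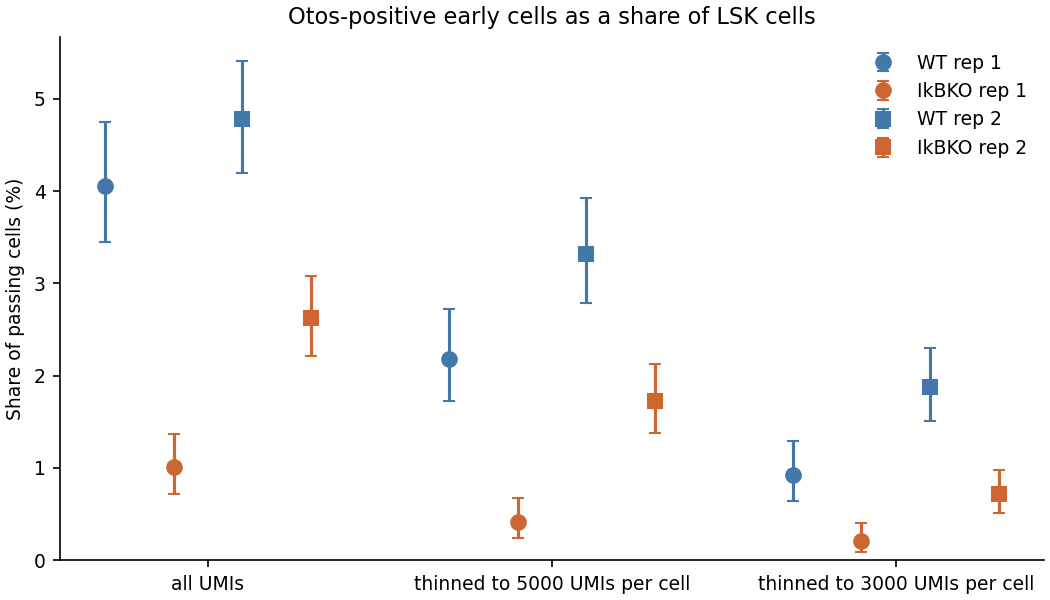
Share of passing LSK cells that met the rule (y axis, percent) with all UMIs and after thinning to 5000 and 3000 UMIs per cell (x axis). Points are the 4 pools by genotype and replicate, and bars are exact 95% intervals of counting error. The IkBKO point lies below the WT point of the same replicate at each depth, for example 1.01% against 4.06% in replicate 1 with all UMIs.

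The cells around the group did not become rarer in the same way. Cells without Otos that met the same upper limits, called Otos-negative cells here, made up 23.3% of WT and 23.6% of IkBKO cells in replicate 1, and 27.2% and 32.5% in replicate 2. Cells with at least 1 UMI of Mecom and no other limit, called Mecom-positive cells here, made up 29.7% and 18.6%, and 35.5% and 31.8%. Within all cells under the upper limits, the chosen cells were 12.3% of WT and 3.70% of IkBKO cells in replicate 1, and 12.9% and 6.75% in replicate 2.

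The lower detection of Otos was not particular to the group. At 5000 UMIs per cell, Otos was found in 18.8% of WT and 7.36% of IkBKO cells under the upper limits in replicate 1, and in 22.5% and 10.3% in replicate 2. Among Mecom-positive cells the shares were 19.2% and 9.64%, and 20.7% and 11.9%. Dntt-positive cells gave 10.1% and 4.48%, and 10.5% and 4.82%. Each of these 3 classes thus had a lower share of cells with Otos in the IkBKO pool of each library. Among cells with at least 20 UMIs of Mpo the libraries went opposite ways, with 11.2% and 5.30% in replicate 1 but 5% (of 40 cells) and 7.65% in replicate 2. Car1-rich cells, the erythroid class, had Otos in 0% of 49 WT cells (exact 95% upper bound 7.25%) and 3.61% of IkBKO cells in replicate 1, and in 12.5% of 8 WT cells (0.316% to 52.7%) and 2.27% of IkBKO cells in replicate 2. Free RNA can put a UMI in cells that do not use the gene. In the IkBKO pools the Car1-rich shares had intervals of 1.67% to 6.75% and 0.742% to 5.22%, and the 8 cells of WT replicate 2 are too few to show a background. Per 1000000 UMIs of all passing cells, Otos stood at 35.9 CPM (WT) and 12.1 CPM (IkBKO) in replicate 1, then 43.3 and 20.02 CPM in replicate 2. Fewer cells that use Otos and less Otos RNA per cell cannot be told apart from these counts. The rule also needs Mc5r or Phlda2. At 5000 UMIs per cell under the upper limits, Mc5r was found in 19.3% (WT) and 10.7% (IkBKO) in replicate 1. In replicate 2 it was found in 27.0% and 17.6%. Phlda2 gave 5.85% and 3.34%, and 8.16% and 5.73%. The part of each gene in the lower share of chosen cells was not tested.

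**Figure D2:**
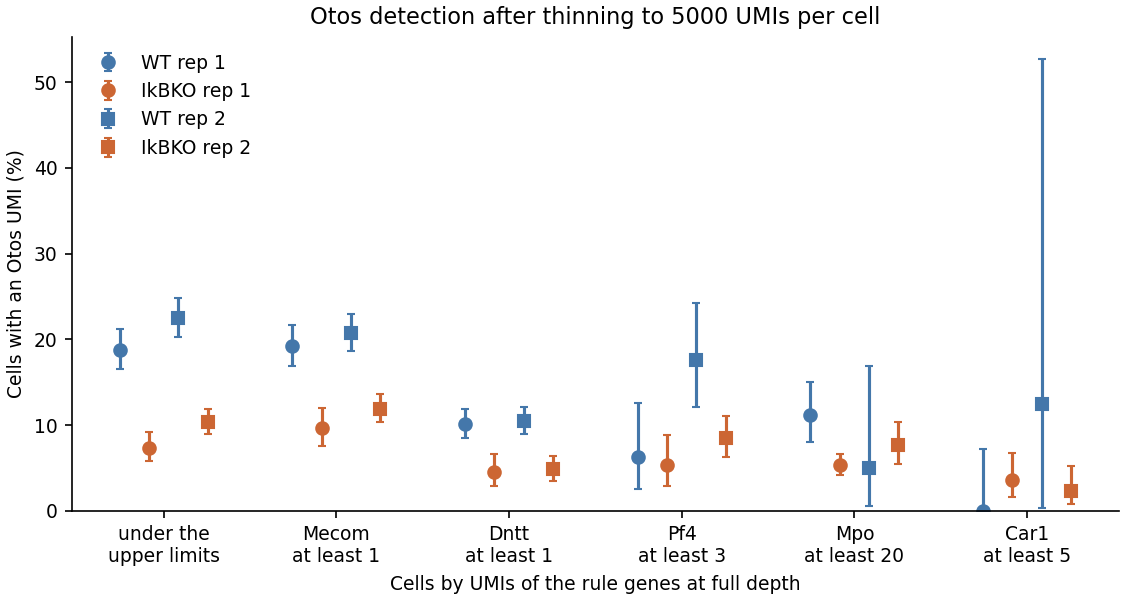
Share of cells with at least 1 UMI of Otos (y axis, percent) after thinning to 5000 UMIs per cell, by class of cell (x axis, sorted by the rule genes at full depth). Bars are exact 95% intervals of counting error. The classes under the upper limits and with Mecom hold the highest shares, 18.8% and 19.2% in WT replicate 1, and the IkBKO points of these classes lie lower, at 7.36% and 9.64%.

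The chosen cells were then set against the rest of the gate. The rule picked them by RNA of the same cells, so these differences are a description and carry no test. Genes were ranked only if they went the same way in all 4 pools, without the rule genes and gene models named only by a number. Among these, compared with Otos-negative cells, Mtfr2 had the highest ratio at 0.75 log2 units (log2 ratio of CPM + 5). The 15 highest included several genes of DNA synthesis and mitosis, grouped so after their values were seen, beside others such as Fry (0.59). Tyms, the thymidylate synthase of DNA precursor supply, averaged 0.70 log2 units higher. Nusap1, a spindle protein, was 0.71 higher, Pbk, a mitotic kinase, 0.71, and Tk1, the thymidine kinase of the S phase, 0.67. Top2a, the topoisomerase of dividing cells, stood at 248, 399, 343 and 398 CPM in WT 1, IkBKO 1, WT 2 and IkBKO 2, against 170, 249, 196 and 283 CPM in Otos-negative cells. With each cell at 5000 UMIs, Top2a was found in 32.4%, 52.5%, 40.6% and 47.1% of the chosen cells and in 27.2%, 32.9%, 28.1% and 35.6% of the Otos-negative cells. The classes themselves were set at full depth, where the chosen cells were deeper. Their medians were 9648, 12007.5, 7945 and 10062 UMIs, against 8033, 8792, 5978 and 7543 in Otos-negative cells. The part of this in the contrast was not tested. The summed G2/M list stood at 3469, 4257, 4301 and 4883 CPM in the chosen cells and at 2747, 3655, 2991 and 4164 CPM in Otos-negative cells. Mecom-positive cells had sums of 3478, 4152, 4550 and 5571 CPM, so these levels do not set the chosen cells apart from them. Of 6141 genes with enough RNA, 1072 were higher and 738 lower in all 4 pools.

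The genes that were lowest in the chosen cells included some of dendritic, B-lineage and phagocytic cells. Cd74, the invariant chain of antigen presentation by MHC class II, stood at 102, 197, 25.1 and 96.5 CPM in the 4 pools, in the same order, against 397, 2193, 181.5 and 2208 CPM in Otos-negative cells. Lgals3, a lectin of macrophages, averaged 3.26 log2 units lower (−3.26), Ly6d, a marker of early B-lineage cells, −3.08, and Ighm, the immunoglobulin heavy chain, −2.89. Irf8, a transcription factor of dendritic cells and monocytes, stood at 39.2, 17.9, 10.5 and 22.8 CPM against 138, 227, 53.8 and 228 CPM. The Otos-negative class is a mixture: its summed mature neutrophil markers reached 5623 CPM in WT replicate 1 and 2792 CPM in WT replicate 2, and its monocyte and dendritic markers ranged from 815 to 1511 CPM against 525 to 565 CPM in the chosen cells. The part of such cells in this contrast was not tested.

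Mecom-positive cells were closer to the group. This class is a mixture too, since the upper limits on Mpo, Dntt, Pf4 and Car1 were not applied to it. In the same order of pools, Mpo stood there at 381, 1200, 104 and 450 CPM. Dntt stood at 120, 45.0, 118 and 46.2 CPM, and Pf4 at 114, 219, 95.9 and 264 CPM. The part of committed cells in this contrast was not tested. Cd48, a surface protein gained as stem cells become progenitors, stood at 151, 203, 139 and 178 CPM in the chosen cells against 112, 169, 84.7 and 128 CPM in Mecom-positive cells. Hlf was lower in the chosen cells, at 266, 125, 421 and 295 CPM against 355, 167, 621 and 348 CPM. Among genes ranked in the same way, Cpa3, a protease of mast cell precursors, had the highest ratio at 0.93 log2 units. However, 45 of its 60 UMIs in IkBKO replicate 1 came from 1 cell. Emid1 followed at 0.52, Slc22a3, a cation transporter, at 0.49 and Nkg7, a cytotoxic granule gene, at 0.45. The lowest were Ighm at −1.74, Clec12a, a myeloid lectin, at −1.12, and Iigp1, an interferon-induced GTPase, at −0.93. Of 6178 genes with enough RNA, 448 were higher and 918 lower in all 4 pools.

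**Figure D3:**
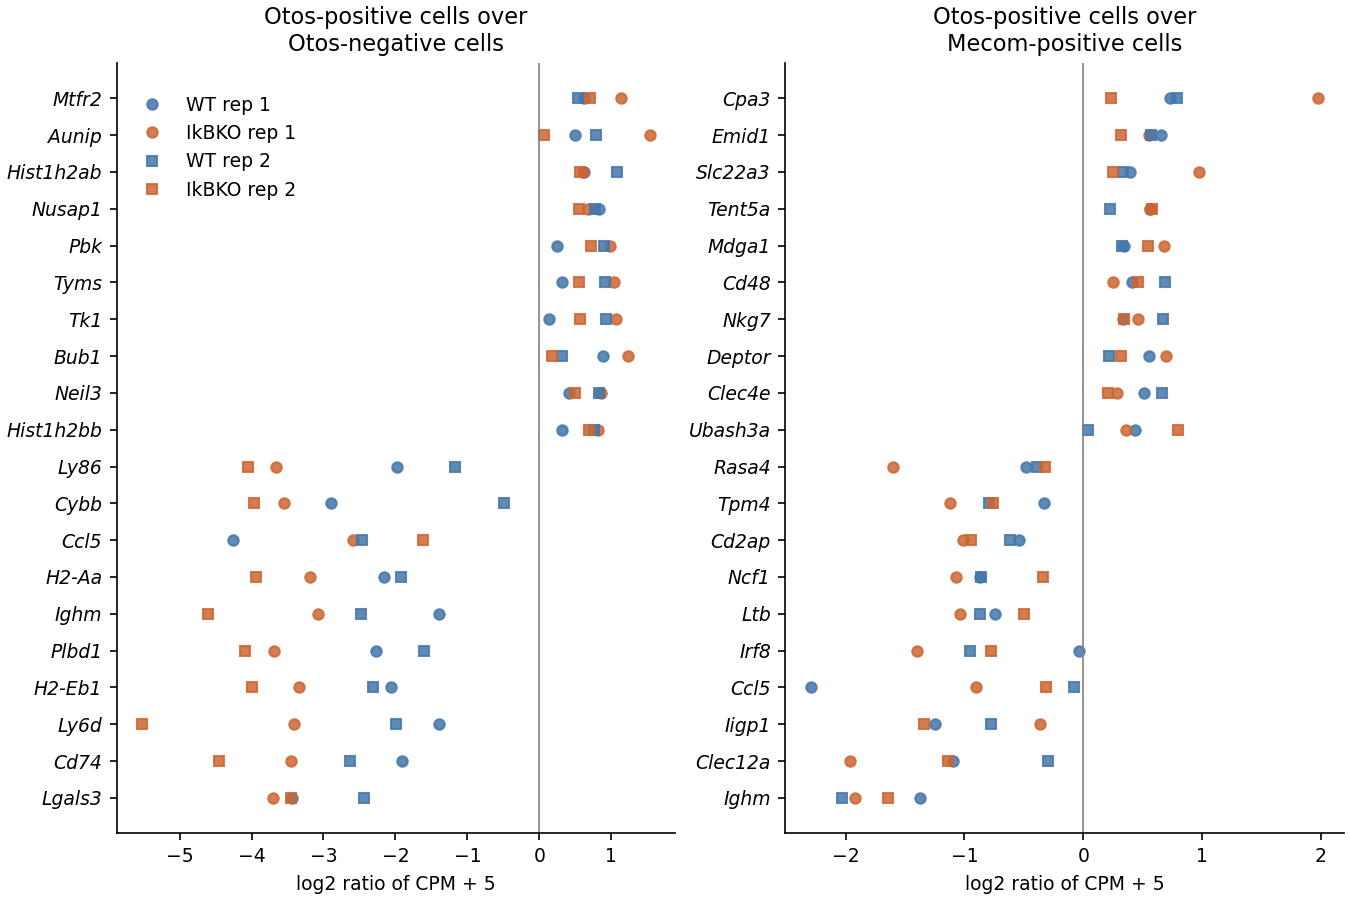
Difference between the chosen cells and Otos-negative cells (left) or Mecom-positive cells (right), as log2 ratio of CPM + 5 (x axis), for the 10 highest and 10 lowest genes (y axis). Points are the 4 pools. Only genes with the same direction in all 4 pools were ranked, so each point of a gene lies on the same side of 0 by that choice. The highest ratio against Otos-negative cells averages 0.75 log2 units and the lowest −3.26.

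Replicate 1 also carried antibody tags for 3 surface proteins, which the rule did not use. The median count of the CD48 tag was 479 in WT and 590 in IkBKO chosen cells, against 412 and 527 in Mecom-positive cells and 633 and 634 in cells with at least 20 UMIs of Mpo. The Flt3 tag had medians of 126 and 122.5, and the CD150 tag, which marks long-term stem cells, of 114 and 109. Mecom-positive cells had medians of 126 and 124 for Flt3 and of 112 and 111 for CD150, close to those of the chosen cells. The CD48 tag thus sat above Mecom-positive cells in both genotypes, as its RNA did, with wide quartiles of 382 to 639 in WT and 414.5 to 756.5 in IkBKO chosen cells. Its medians were near those of Otos-negative cells (452 in WT and 538 in IkBKO) and of all passing cells (475 and 568). Only replicate 1 carried these tags, so no test was made.

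The second comparison was of IkBKO with WT within the chosen cells, gene by gene. Summed counts of the 4 pools went into edgeR's quasi-likelihood test with the library as a block, and a gene was called at a Benjamini-Hochberg adjusted p of 0.05 or less. In all, 1.55% of 9469 genes passed, 95 of them (1.00%) with more and 52 (0.549%) with less RNA in IkBKO cells, and 90 and 51 of these moved the same way in both replicates. The 95 include Mpo, whose counts the rule itself caps, so its call is not read as a change. The median over all genes tested was 0.0063 log2 units. List counts given below stand beside these shares of 1.00% higher and 0.549% lower over all genes. In this fit edgeR gave every gene the common spread of genes of like level, so a gene's own disagreement between replicates did not enter its p. Cpa3, Prtn3, Hist1h1b and Myl10 were called higher and Elane lower although their replicates went opposite ways, and none of these is counted as a change below. Of the 95 and 52 genes, 19 and 16 were also called without the block and 8 and 3 by DESeq2. Leaving out a pool, with the block dropped, left 32 and 26 genes without WT replicate 1, 24 and 10 without WT replicate 2, 3 and 2 without IkBKO replicate 1, and 2 and 0 without IkBKO replicate 2. Of 55 called genes that were checked one by one, 33 passed without WT replicate 1, 15 without WT replicate 2, 5 without IkBKO replicate 1 (AA465934, Gdpd3, Fos, Crip1 and Hbb-bt) and 1 without IkBKO replicate 2 (AA465934). Without the 5 cells rich in other-lineage RNA, 1.27% of 9427 genes passed, 76 higher (0.806%) and 44 lower (0.467%). In that fit only 8702 of the 9427 genes were given the common spread alone. For the others the gene's own disagreement between replicates did enter. A call lost there therefore need not mean that the 5 cells carried the difference.

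The call that held under most alternatives was that of AA465934, a non-coding transcript (chromosome 11, 83291699 to 83294632, plus strand; mm10). It stood at 2.93 CPM (WT) and 197 CPM (IkBKO) in replicate 1, then 5.49 and 114 CPM in replicate 2. The IkBKO pools lay far above the WT pools, and the transcript was found in 72.5% and 64.5% of IkBKO cells against 3.31% and 5.06% of WT cells. It rose by 5.08 ± 0.28 log2 units (SE; edgeR adjusted p = 1.32e-69) and was called under each of 12 alternative settings. The rise was 4.86 log2 units in Otos-negative cells, and the difference between the classes did not pass (interaction 0.24 ± 0.40). Gdpd3, which encodes a lysophospholipase D (chromosome 7, 126766334 to 126775649), stood at 1.76 and 51.6 CPM in replicate 1, then 0 and 55.4 CPM in replicate 2. Only 3 UMIs in WT stood against 111 in IkBKO cells, a ratio of 70.7 with an interval of 23.6 to 348 from counting error, and it passed under 10 of the 12 alternatives.

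**Figure D4:**
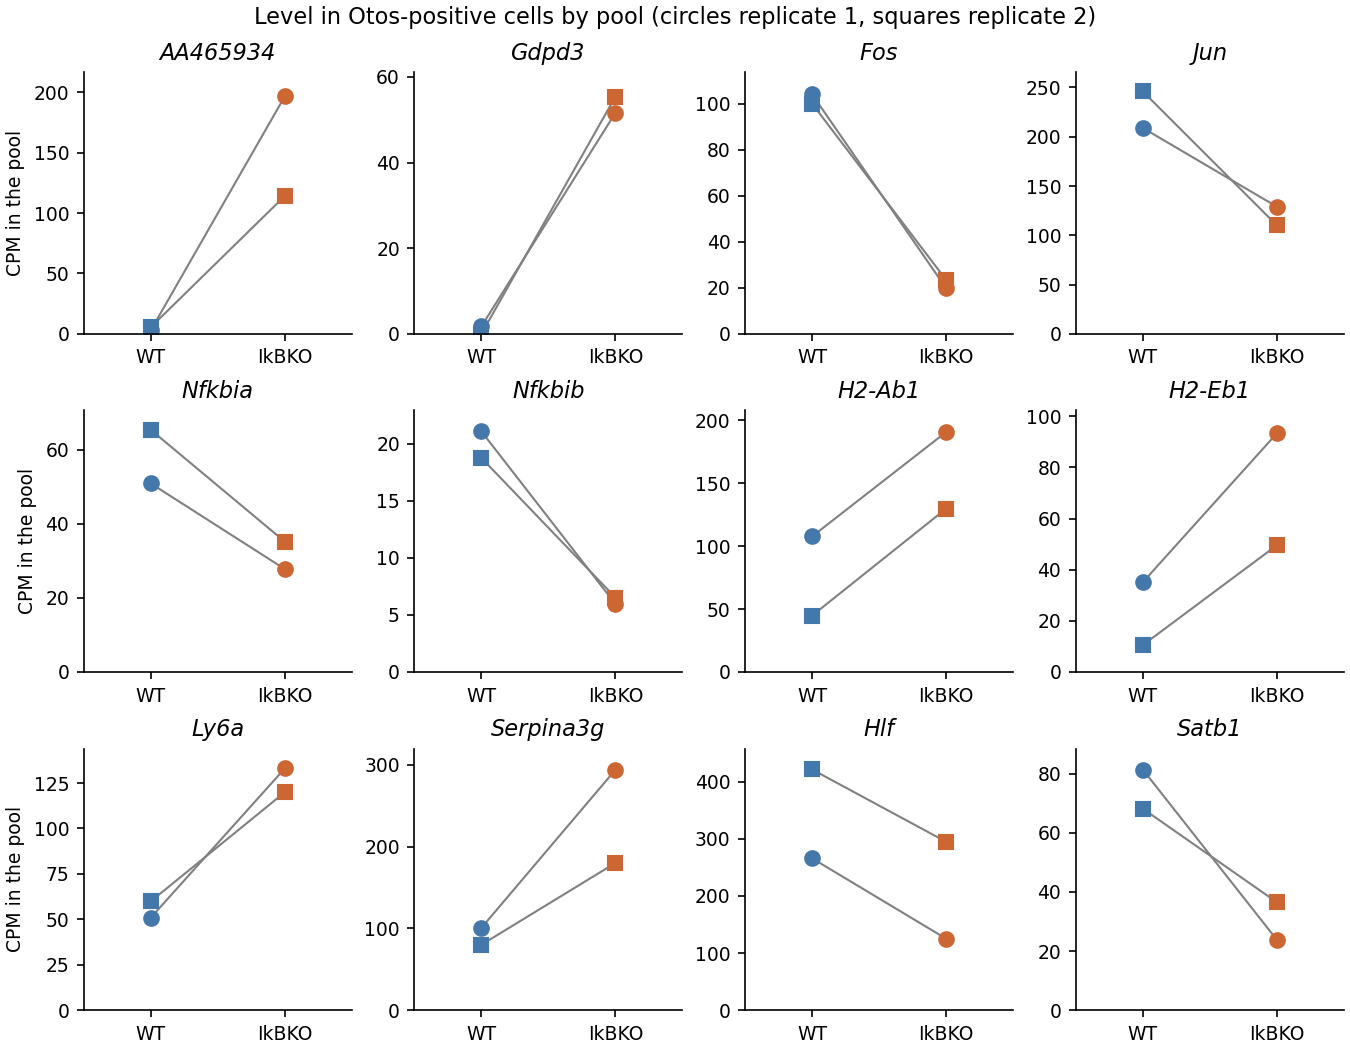
Level of 12 genes in the chosen cells (y axis, CPM of the pool; x axis, genotype). Circles are replicate 1, squares replicate 2, and lines join the pools of 1 library. AA465934 lies at 2.93 and 5.49 CPM in the WT pools and at 197 and 114 CPM in the IkBKO pools, and each gene shown moves the same way in both libraries.

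Of the IκB family, 3 genes were lower. Nfkbib, which encodes IκBβ (chromosome 7, 28758251 to 28767512), stood at 21.1 CPM (WT) and 5.96 CPM (IkBKO) in replicate 1, then 18.7 and 6.52 CPM in replicate 2. It fell by 1.57 ± 0.43 log2 units (edgeR adjusted p = 0.0251). Nfkbie, which encodes IκBε (chromosome 17, 45555703 to 45563169), stood at 15.2 and 3.97 CPM, and at 11.0 and 1.96 CPM. It fell by 2.21 ± 0.64 log2 units (adjusted p = 0.0381), and without the 5 cells it did not pass (adjusted p = 0.117). The IkBKO levels of both genes rest on few molecules, since those pools held only 503660 UMIs in replicate 1 and 1533836 in replicate 2. The sizes of these falls are therefore uncertain. Nfkbib passed under 4 of the 12 alternatives and Nfkbie under 2. Because only transcript 3′ ends were read and the altered parts of the genes are not known here, these levels check the labels only in part. Of the 11 genes of the NF-κB and IκB list, 0 were higher and 3 lower, with a median of −0.20 log2 units. The NF-κB subunit genes Nfkb1 (0.26), Rel (−0.20), Rela (0.13), Relb (0.03) and Nfkb2 (0.07) did not pass, nor did Nfkbid (−0.42) and Nfkbiz (−0.30), nor did Bcl3 (1.14 ± 0.48, adjusted p = 0.442), an atypical IκB that binds p50 and p52 dimers in the nucleus.

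The third gene that fell was Nfkbia, the IκBα gene (chromosome 12, 55489410 to 55492647, minus strand). In the chosen cells it stood at 50.9 CPM (WT) and 27.8 CPM (IkBKO) in replicate 1, then 65.4 and 35.2 CPM in replicate 2, so both IkBKO pools lay below both WT pools. It fell by 0.86 ± 0.24 log2 units (edgeR adjusted p = 0.0266). In Otos-negative cells of the same libraries it was higher in IkBKO cells, at 50.3 and 79.2 CPM in replicate 1, then 73.6 and 87.3 CPM in replicate 2 (0.47 log2 units, adjusted p = 0.0199). The genotype difference itself differed between the classes by −1.27 ± 0.23 log2 units (interaction, edgeR adjusted p = 1.73e-05), and by −1.10 without the cells rich in other-lineage RNA (adjusted p = 0.00408). Against all other passing cells the difference between classes was −0.66 and did not pass (adjusted p = 0.249). The mixture of Otos-negative cells itself shifted with genotype. Their summed monocyte and dendritic markers stood at 1042 CPM (WT) and 1511 CPM (IkBKO) in replicate 1, then 815 and 1504 CPM in replicate 2. The part of this shift in the Nfkbia contrast was not tested. Within the chosen cells the fall did not pass without the block (−0.81, adjusted p = 0.317) or with no call on Mc5r or Phlda2 (−0.35, adjusted p = 0.164), and it passed under 3 of the 12 alternatives. The window around its start, shown because the gene is a textbook target of NF-κB, holds the letters GGACTTTCC and GGAAATTCC, here in capitals. On either strand these are found in 0.344% and 0.317% of 32851 RefSeq promoter windows of GRCm38.p6, each from 250 bases before to 50 after a start. The window is chr12:55492598-55492897 on the minus strand.
Nfkbia: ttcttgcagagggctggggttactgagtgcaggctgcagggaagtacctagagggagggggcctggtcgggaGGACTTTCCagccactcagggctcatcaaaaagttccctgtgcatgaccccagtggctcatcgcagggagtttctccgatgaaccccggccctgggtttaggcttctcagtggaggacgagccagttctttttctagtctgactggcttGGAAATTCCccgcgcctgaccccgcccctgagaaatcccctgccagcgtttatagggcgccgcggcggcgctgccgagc

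The NF-κB responsive list had 15 tested genes, of which 1 was higher and 1 lower (1.00% and 0.549% over all genes). The latter was Nfkbia again, and the median was 0.23 log2 units. Irf1, a transcription factor induced by NF-κB and interferon, stood at 31.6 and 55.6 CPM in replicate 1, then 36.1 and 59.3 CPM in replicate 2. It rose by 0.78 ± 0.23 log2 units (edgeR adjusted p = 0.0449), and not past the threshold without the 5 cells (adjusted p = 0.0734). Ccl5, a chemokine that NF-κB can induce, lay outside that list. It stood at 1.17 and 15.9 CPM, and at 5.94 and 26.7 CPM, and rose by 2.51 ± 0.47 log2 units (4.17 without WT replicate 2).

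MHC class II genes were higher in IkBKO cells. H2-Eb1, a β chain of MHC class II, stood at 35.1 CPM (WT) and 93.3 CPM (IkBKO) in replicate 1, then 10.5 and 49.5 CPM in replicate 2. It rose by 1.79 ± 0.24 log2 units (edgeR adjusted p = 1.27e-10). In WT replicate 1, 45 of its 60 UMIs came from the 1 cell rich in dendritic RNA, and without the 5 cells the pools stood at 5.40, 94.6, 10.6 and 49.7 CPM with a rise of 2.99 log2 units. H2-Ab1 stood at 108 and 191 CPM, and at 44.8 and 130 CPM (1.21 ± 0.17), and H2-Aa at 36.3 and 97.3 CPM, and at 18.7 and 59.3 CPM (1.57 ± 0.23). H2-Eb1 was found in 55.0% and 31.9% of IkBKO cells against 7.28% and 5.06% of WT cells, so the higher level was spread over many cells. Cd74 was called at 1.40 ± 0.19, but 142 of its 175 UMIs in WT replicate 1 came from that 1 cell, and without the 5 cells it was 3.04 and did not pass (adjusted p = 0.929), with pools at 5.40, 199, 25.4 and 96.9 CPM. Of the 6 genes of the list tested, 4 were higher with a median of 1.31 log2 units, and without the 5 cells 3 were higher with a median of 2.13. DESeq2 called Cd74 but not the H2 genes (adjusted p = 0.0757 for H2-Ab1, 0.0779 for H2-Eb1 and 0.117 for H2-Aa). Without WT replicate 2, H2-Eb1 stood at 0.89, H2-Aa at 1.00, H2-Ab1 at 0.51 and Cd74 at 0.41 log2 units and none passed. Without WT replicate 1, H2-Eb1 stood at 2.70, H2-Ab1 at 1.85 and Cd74 at 2.51 and all passed, and without IkBKO replicate 1 they stood at 1.16, 0.78 and 0.62 and none passed.

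The genotype difference of these genes was smaller than in Otos-negative cells. There H2-Eb1 stood at 163 and 992 CPM in replicate 1, then 71.9 and 865 CPM in replicate 2, although in that class's own fit it did not pass (3.12 log2 units, adjusted p = 0.256). The genotype difference of the chosen cells differed from theirs by −1.28 ± 0.22 log2 units for H2-Eb1 (interaction, edgeR adjusted p = 1.11e-05), by −1.42 for H2-Aa, by −1.52 for H2-Ab1 and by −1.60 for Cd74. Without the cells rich in other-lineage RNA these were −1.74, −1.67, −1.66 and −1.36, all past the threshold. The summed class II level of the chosen cells ran from 308 to 792 CPM, and that of Otos-negative cells from 659 to 5659 CPM. Markers of monocytes and dendritic cells moved with this contrast in the Otos-negative class (1042 and 815 CPM in the WT pools against 1511 and 1504 CPM in the IkBKO pools) but lay between 525 and 565 CPM in the 4 pools of chosen cells, with Siglech and Cd209a at 0. Their part in the difference between classes was not tested. Both H2-Aa and H2-Eb1 hold the letters CTGATTGG (the Y box of class II promoters) in the RefSeq window, shown here in capitals because these genes rose together. Of the 8 class II genes, 5 had a window in the RefSeq table, and 2 of these held the letters on either strand, against 4.10% of all windows. The windows are chr17:34287774-34288073 on the minus strand for H2-Aa and chr17:34305617-34305916 on the plus strand for H2-Eb1 (GRCm38.p6).
H2-Aa: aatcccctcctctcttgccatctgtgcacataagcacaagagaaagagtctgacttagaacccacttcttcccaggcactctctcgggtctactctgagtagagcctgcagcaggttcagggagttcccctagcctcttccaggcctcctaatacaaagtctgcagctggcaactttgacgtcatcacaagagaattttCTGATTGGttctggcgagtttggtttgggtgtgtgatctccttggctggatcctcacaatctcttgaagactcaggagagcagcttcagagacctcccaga
H2-Eb1: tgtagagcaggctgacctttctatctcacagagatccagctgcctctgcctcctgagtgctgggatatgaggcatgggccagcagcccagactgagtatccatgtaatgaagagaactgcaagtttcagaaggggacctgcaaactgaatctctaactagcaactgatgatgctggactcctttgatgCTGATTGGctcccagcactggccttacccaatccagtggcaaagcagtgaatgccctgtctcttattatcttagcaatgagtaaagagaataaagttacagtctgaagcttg

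Interferon-stimulated genes differed in part. Of 23 tested, 5 were higher and 1 lower (1.00% and 0.549% over all genes), with a median of 0.19 log2 units. Those that rose included Iigp1 (1.98), Zbp1 (2.03), a sensor of nucleic acids, and the GTPase genes Gbp3 (1.52) and Igtp (1.07). Gbp3 stood at 9.36 and 27.8 CPM in replicate 1, then 11.4 and 31.3 CPM in replicate 2 (1.52 ± 0.33). Ifi27l2a, an interferon-induced mitochondrial protein, fell by 1.62 ± 0.35 log2 units. Iigp1 and Zbp1 differed more in replicate 1, where Iigp1 stood at 7.61 and 95.3 CPM, than in replicate 2, where it stood at 19.7 and 35.9 CPM. Zbp1 lay at 1.03 without IkBKO replicate 1, and Iigp1 ranged from 1.34 without that pool to 2.89 without WT replicate 2.

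Immediate-early genes were lower as a group. Of 14 tested, 0 were higher and 8 lower (1.00% and 0.549% over all genes). The 8 were Fos, Fosb, Jun, Zfp36, Jund, Egr1, Btg2 and Ier2, and the median of the list was −0.84 log2 units. Fos, a subunit of the AP-1 factor (chromosome 12, 85473890 to 85477273), stood at 104 CPM (WT) and 19.9 CPM (IkBKO) in replicate 1, then 100.1 and 23.5 CPM in replicate 2. It fell by 2.15 ± 0.24 log2 units (edgeR adjusted p = 6.32e-16) and was called under 11 of the 12 alternatives. Fosb stood at 62.0 and 9.93 CPM, and at 67.2 and 24.1 CPM (−1.70 ± 0.26; −2.64 without IkBKO replicate 2). Jun, the partner of Fos in AP-1, stood at 209 and 129 CPM, and at 246 and 110 CPM (−0.95 ± 0.16). Zfp36, which encodes an RNA-binding protein that destabilizes cytokine mRNA, stood at 46.8 and 21.8 CPM, and at 57.6 and 16.3 CPM (−1.56 ± 0.28). In each of these 4 genes both IkBKO pools lay below both WT pools. None of the 4 differed past the threshold between the chosen and the Otos-negative cells, where Fos fell by 2.33 log2 units.

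Myeloid genes leaned higher. Of 17 tested genes of the myeloid priming list, 5 were called higher and 2 lower, with a median of 0.15 log2 units, but Prtn3 and Elane among these went opposite ways in the replicates. Ctsg, the cathepsin of neutrophil granules, stood at 146 and 318 CPM in replicate 1, then 49.8 and 241 CPM in replicate 2 (1.71 ± 0.15). Without WT replicate 2 it lay at 0.90 and did not pass (adjusted p = 0.0731), nor did it pass without the block (1.52, adjusted p = 1.00). Plac8, a gene of early myeloid progenitors, stood at 895 and 1326 CPM, and at 729 and 1172 CPM (0.65 ± 0.10). Csf2rb, the common receptor chain for GM-CSF and interleukin-3, rose by 1.23 log2 units. Ccl9, a myeloid chemokine, was called at 1.58. Without the 5 cells its value hardly moved (1.52), but it did not pass in that fit (adjusted p = 0.952). Ccl9 lay at 0.67 without WT replicate 2 and at 2.50 without WT replicate 1. Tyrobp, a signalling adaptor, was called at −0.72 but not without the 5 cells (adjusted p = 0.0814). The rule caps Mpo under 20 UMIs, so cells richer in this programme were left out of both genotypes, and unevenly. Cells at or above the cap were 339 of 3721 WT and 1473 of 3962 IkBKO cells in replicate 1. In replicate 2 they were 40 of 4963 and 510 of 5383. The part of this uneven cap in the myeloid differences was not tested.

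Stem cell and lymphoid genes leaned lower. Of 15 tested stem cell identity genes, 1 was higher and 2 lower, with a median of −0.25 log2 units. Hlf stood at 266 and 125 CPM in replicate 1, then 421 and 295 CPM in replicate 2, a fall of 0.69 ± 0.14 log2 units. The WT pool of replicate 1 lay below the IkBKO pool of replicate 2, so the pools overlapped across libraries. Hlf was not called without the block (−0.63, adjusted p = 1.00) or by DESeq2 (adjusted p = 0.256), and it lay at −0.29 without WT replicate 2, −0.22 without IkBKO replicate 1 and −1.40 without IkBKO replicate 2. Gcnt2, a glycosyltransferase, fell by 0.85 ± 0.16 (−0.53 without WT replicate 2), and Ifitm1, an interferon-induced membrane protein also found in stem cells, rose by 0.50 ± 0.10 (0.27 without WT replicate 2, 0.28 without IkBKO replicate 1 and 0.75 without WT replicate 1). Of 9 lymphoid priming genes tested, 9 had a value below 0, with a median of −0.28, and 1 was called. This was Satb1, which stood at 81.3 and 23.8 CPM in replicate 1, then 68.1 and 36.5 CPM in replicate 2 and fell by 1.13 ± 0.23. Outside the list, Ighm fell by 1.80 ± 0.38 and Tox, a factor of lymphoid development, by 1.66 ± 0.39. Tox lay at −0.82 without WT replicate 2 (adjusted p = 1.00) and did not pass without the block (adjusted p = 0.262).

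Ly6a, the gene of the Sca-1 protein used for sorting, stood at 50.9 and 133 CPM in replicate 1, then 59.9 and 120 CPM in replicate 2 (1.18 ± 0.19). Both IkBKO pools lay above both WT pools. Sca-1 was part of the sorting gate, and the part of the gate in this difference was not tested. Of 12 surface genes tested, 2 were called higher, Ly6a among them, and 0 lower, with a median of 0.02. Of 5 tested stem cell ageing genes, 2 were higher, the metallothionein Mt1 (1.78) and the adhesion receptor Selp (1.33), and 1 was lower, Zfp36 again. Mt1 stood at 16.4 and 79.4 CPM in replicate 1, then 7.77 and 15 CPM in replicate 2, and lay at 0.35 without IkBKO replicate 1, 1.18 without WT replicate 2 and 2.81 without IkBKO replicate 2. It passed neither without the block nor by DESeq2 (adjusted p = 1.00 each). Selp stood at 25.8 and 39.7 CPM, and at 6.40 and 28.0 CPM, and lay at 0.29 without WT replicate 2, 0.86 without IkBKO replicate 1 and 2.37 without WT replicate 1. The median of that list was 1.33. Of 9 megakaryocyte and erythroid genes tested, Apoe (0.67) was called higher and Car2 (−0.49) lower, with a median of 0.33. Apoe turned to −0.16 with at least 2 UMIs of Otos, to −0.073 without IkBKO replicate 1 and to −0.0071 without WT replicate 2. Car2 lay at −0.20 without WT replicate 2. None of the 7 imprinted genes tested passed, in a list that shares Phlda2 with the rule, and their median was 0.09.

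Cell cycle genes leaned higher, and few of the listed ones were called. Of 39 genes of the G2/M list tested, 38 had a value above 0, with a median of 0.38 log2 units, and 2 were called higher. Over all genes tested the median was 0.0063, and 1.00% were called higher. Top2a stood at 248 and 399 CPM in replicate 1, then 343 and 398 CPM in replicate 2 (0.45 ± 0.13; 0.28 without WT replicate 1). Ccnb1, the mitotic cyclin, stood at 31.6 and 31.8 CPM, and at 19.7 and 52.8 CPM (0.93 ± 0.25), so its difference came from replicate 2, and it lay at 0.39 without IkBKO replicate 2 and 0.50 without WT replicate 2. None of 29 G1/S genes was called, with a median of 0.06. Of 12 cell cycle regulators 1 was called, the cyclin-dependent kinase inhibitor Cdkn1a (1.44 ± 0.37; 0.80 without WT replicate 2), with a median of 0.18. Outside these lists, and picked after their values were seen, Tk1 (0.86 ± 0.21), Pclaf (0.57 ± 0.15), whose protein binds the replication clamp PCNA, and some histone genes were called higher. These were Hist1h2bm (1.26), Hist1h2bj (0.96), Hist1h2bb (0.85), Hist1h2ap (0.72), Hist1h1a (0.68), Hist1h2ae (0.60) and Hist1h4d (0.60), each higher in both replicates. Without the 5 cells Hist1h2ap did not pass (adjusted p = 0.943), although its value hardly moved (0.75), and the others passed. Histone genes of a cluster are near-identical copies, so their values are uncertain.

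The other calls included 3 genes that held up under at least 9 of the 12 alternatives and were picked after their values were seen. Crip1, a LIM-domain protein, stood at 495 and 236 CPM in replicate 1, then 446 and 127 CPM in replicate 2 (−1.45 ± 0.14; −0.94 without IkBKO replicate 2). Its difference between classes was −0.85 and lay at −0.15 without the cells rich in other-lineage RNA (adjusted p = 1.00). Serpina3g, a serine protease inhibitor, stood at 101 and 294 CPM, and at 80.0 and 180 CPM (1.37 ± 0.16). H2-Q7, a non-classical MHC class I gene, stood at 253 and 562 CPM, and at 268 and 443 CPM (0.95 ± 0.13). Serpina3g and H2-Q7 have near-identical copies, so their reads may be split between genes and their values are uncertain. Among called genes with the same direction in both replicates and at least 20 CPM in 1 genotype, the 12 highest fold changes included Cd55 (2.30), a complement regulator, Lratd2 (2.06) and Slc4a8 (1.74; 0.72 without WT replicate 2 and 2.88 without WT replicate 1), a bicarbonate transporter. The 12 lowest included Paqr5 (−1.81), a membrane progesterone receptor, Pex6 (−1.58), a peroxisome factor, and Itsn1 (−1.53; −3.50 without IkBKO replicate 2), an endocytic scaffold. Genes with less RNA had fitted values further from 0, such as Mid1 (−6.70) and Tmem121 (−3.94), which depend on the prior count.

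Markers of other cell types moved in some pools. The neutrophil markers S100a9, S100a8 and Camp were called lower (3 of 3 tested, −6.38, −5.51 and −6.30), but 2011 of the 2026 S100a9 UMIs of WT replicate 2 came from 1 cell, and without the 5 cells neither S100a9 nor S100a8 passed (adjusted p = 0.929 each) and Camp was too low to test. Mcpt8 and Cpa3, the 2 mast cell and basophil markers tested, were called higher and rested on 1 IkBKO cell of replicate 1; without the 5 cells they did not pass (adjusted p = 0.660 and 0.979). Of 2 erythroid markers tested, Hbb-bt, a haemoglobin β chain, was higher at 45.1 and 91.3 CPM, and at 40.2 and 134 CPM (1.49 ± 0.20; 1.33 without the 5 cells). Its copy Hbb-bs, which shares reads with it, did not pass (0.17). Of 3 monocyte and dendritic markers tested, Ms4a6c was higher at 33.4 and 75.4 CPM, and at 35.2 and 67.8 CPM (1.06 ± 0.22). The single B cell (Cd79b, −0.10), T and NK cell (Nkg7, 0.06) and stroma (Pecam1, 0.17) markers tested did not pass. Summed levels stayed low for B cells (28.0 to 46.8 CPM), stroma (40.4 to 49.6 CPM, with Lepr, Cdh5 and Adipoq at 0) and erythroid cells (45.7 to 138 CPM). The T and NK sum of 175 to 232 CPM was nearly all Nkg7, with Cd3e, Cd3g, Trbc1 and Cd8a at 0.

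The third comparison asked where the genotype difference itself was unlike that of Otos-negative cells. Of 11871 genes tested for this interaction, 0.632% passed, 10 (0.0842%) with a higher and 65 (0.548%) with a lower difference in the chosen cells. Without the cells rich in other-lineage RNA 0.197% of 11657 genes passed, 2 higher (0.0172%) and 21 lower (0.180%). Beside Nfkbia and the class II genes, Wfdc17 and Ighm kept their difference without those cells. Wfdc17, a small secreted inhibitor of the WAP family, stood at 103 and 39.7 CPM in replicate 1, then 48.0 and 27.4 CPM in replicate 2 of the chosen cells, and at 164 and 31.7 CPM, and 167 and 30.5 CPM, in Otos-negative cells. It fell by 1.02 in the first (−0.55 without WT replicate 1, −1.73 without WT replicate 2) and 2.38 in the second, a difference of 1.35 ± 0.25 (interaction, edgeR adjusted p = 2.67e-05). Ighm fell in the chosen cells and stood at 77.2 and 70.4 CPM, and at 166 and 322 CPM, in Otos-negative cells, a difference of −2.57 ± 0.36. The actin-binding Tmsb4x did not pass within the chosen cells (−0.22) and differed by −0.85 ± 0.07 between the classes. For AA465934, Fos, Jun, Plac8, Hlf and Satb1 the difference between classes did not pass. The part of the shifting mixture of Otos-negative cells in these differences was not tested.

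**Figure D5:**
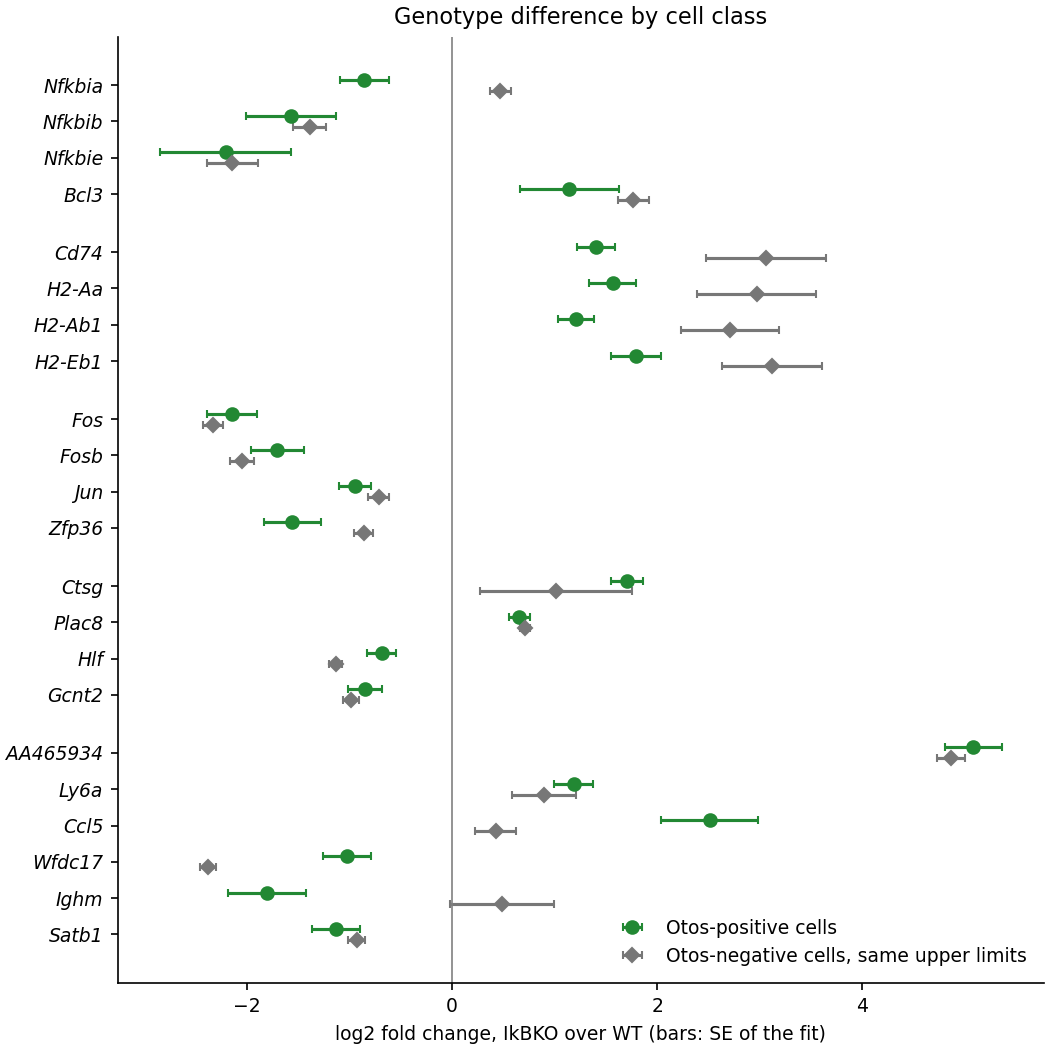
Log2 fold change of IkBKO over WT (x axis) for 22 genes (y axis) in the chosen cells (circles) and in Otos-negative cells under the same upper limits (diamonds), with bars of 1 SE derived from each fit. Bars of circles use the spread shared by genes of like level. In the fit of the diamonds a gene's own disagreement between replicates did enter, so the bars rest on unlike spreads. Nfkbia lies at −0.86 in the chosen cells and 0.47 in Otos-negative cells, whereas AA465934 lies at 5.08 and 4.86. The mixture of Otos-negative cells shifted with genotype, and its part in these contrasts was not tested.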

How the data were processed

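Per the labels, LSK cells were hashed with TotalSeqB antibodies and run on 10x Chromium 3′ v3.1, 2 libraries with both genotypes in each. The deposited matrices hold raw UMI counts per gene and barcode, written by Cell Ranger 6.0.0 per the file headers, while the submitters' processing notes name Cell Ranger 7.0, Seurat 4.3.0 and mm10. A deposited table gives the quality call (7683 of 9322 barcodes passed in replicate 1 and 10346 of 24787 in replicate 2) and the genotype; the sources used here state the rules of neither. Coordinates came from GENCODE vM21 of the same build, which holds 99.6% of the gene identifiers.

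Counts were summed per replicate and genotype and tested with edgeR 4.0.16 in R 4.3.3 (quasi-likelihood, robust, TMM, filterByExpr, two-sided, Benjamini-Hochberg at 0.05), with the library as a block, since the labels place both genotypes of a replicate in 1 library. Over 9469 genes same-numbered pools deviated together with a correlation of 0.174, or of 0.0996 when sex-linked genes were left out. With 1 residual degree of freedom per gene, edgeR's prior weight was infinite for all 9469 genes (and for all 11871 of the interaction). The p-values and SEs of these fits thus reflect the spread shared by genes of like level. Each SE was the size of the log2 value divided by the square root of edgeR's F. DESeq2 1.42.0 was an alternative. The interaction used 8 pools, with pool, class and class by replicate as terms. Levels are CPM, and descriptions use log2(CPM + 5), which understates differences of low genes. Thinning drew 5000 or 3000 UMIs per cell without replacement. The steps were tested on simulated data.

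The chosen cells, the gene lists and the rule for named genes were all set with earlier results of these data known. The named genes held the 12 highest and 12 lowest called fold changes. These had the same direction in both replicates and at least 20 CPM in 1 genotype. Also named were the rule genes, the NF-κB and IκB family, the 4 or fewer lowest p-values of each list and the 6 strongest interactions each way. The last were the 15 highest and lowest of each description among genes with the same direction in all 4 pools. The 12 alternatives for the genotype test were no block, DESeq2, RLE scaling, no low-count filter, leaving out each of the 4 pools, 2 other rules for the cells, thinning, and leaving out 5 cells rich in other-lineage RNA, the last of which was added after the data were seen. No further filter on cells was used and doublets were not called. Some genes are not reported here.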

Additional observations from a re-analysis of the deposited data

Results flagged for a closer look

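For 12 genes the genotype difference (IkBKO over WT, log2 units) of the chosen cells differed from that of Otos-negative cells under the same upper limits, by a test of the difference itself (edgeR interaction). For the class II genes Cd74 and H2-Ab1 the differences were −1.60 and −1.52, and both passed without the cells rich in other-lineage RNA (−1.36 and −1.66). For Tmsb4x it was −0.85 (−0.61 without those cells, past the threshold), for Wfdc17 1.35 (1.36, past the threshold) and for Ccl5 1.88 (1.71, adjusted p = 0.0318).

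Other values did not pass without those cells. Ctsg differed by 0.67 (0.45, adjusted p = 0.695), Hbb-bt by 1.12 (0.49, adjusted p = 1.00) and Lyz2, the lysozyme of phagocytes, by 0.89 (0.50, adjusted p = 0.303). S100a9 differed by −2.56 (−0.11, adjusted p = 1.00), with 2011 of 2026 UMIs of WT replicate 2 in 1 chosen cell.

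The remaining genes had few UMIs in the chosen cells. Cma1, a mast cell protease, gave a fitted 10.36 that rests on 51 UMIs of 1 IkBKO cell. Cybb, the oxidase subunit of phagocytes, gave a fitted −10.68 with 26 UMIs in WT and 0 in IkBKO cells, 25 of them in 1 cell. For Igkc, an immunoglobulin light chain, the fitted value was −5.48, with 60 UMIs in WT and 3 in IkBKO cells and 38 of the former in 1 cell; it passed without those cells (−4.69). Fitted values of genes near 0 depend on the prior count and are no bounds.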

How the results depend on the processing

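The lower share of chosen cells in IkBKO pools kept its direction under every alternative run. The IkBKO over WT ratio was 0.249 in replicate 1 and 0.549 in replicate 2; it moved to 0.132 and 0.355 with at least 2 UMIs of Otos, to 0.376 in replicate 1 with no call on Mc5r or Phlda2, and to 0.382 in replicate 2 at 3000 UMIs per cell. Against 95 genes higher and 52 lower, there were 19 and 16 without the replicate block, 8 and 3 with DESeq2, 16 and 6 with at least 2 UMIs of Otos, 277 and 174 with no call on Mc5r or Phlda2, 29 and 12 after thinning, and 2 to 32 and 0 to 26 when 1 pool was left out. The count of 0, without IkBKO replicate 2, came with 334 genes lower at an unadjusted p under 0.05. The interaction gave 10 and 65 genes, 19 higher against all other cells, and 2 and 21 without cells rich in other-lineage RNA. Of 55 called genes named, 19 passed without the block, 9 with DESeq2 and 44 of 52 without the 5 cells. Directions turned when 1 pool was left out for Elane (−2.26 to 0.60; positive without WT replicate 2), Apoe (−0.073 to 1.504; negative without WT replicate 2 or IkBKO replicate 1) and Cpa3 (−0.37 to 1.91; negative without IkBKO replicate 1). They also turned at 2 UMIs of Otos for Apoe (−0.16) and Cpa3 (−0.98), and for Cpa3 after thinning (−0.12) and without the 5 cells (−0.17). Interactions turned for Ctsg (−0.29) and Lyz2 (−0.17) against all other cells, and for S100a8 without the block term (0.45) or the other-lineage cells (0.070). Causes not shown by the alternative's own construction were not tested. Depth limits the IkBKO pool of replicate 1, with 503660 UMIs from 40 cells.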
